A study of Mus musculus with 21 samples.

Results

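This account compares P1 induced CLiPs with P1 day-0 CLiPs across all genes. CLiPs (chemically induced liver progenitors) are bipotent progenitor-like cells derived from mouse hepatocytes by culture with small-molecule inhibitors, and P1 is the first passage. The cells of interest are P1 CLiPs kept for 8 days under hepatic induction, that is, with oncostatin M and dexamethasone (3 arrays), and they are set against P1 CLiPs before induction, at day 0 (3 arrays). The 6 arrays were taken by their titles from the 21 arrays of the series. All groups came from female C57BL/6 mice, and the labels name no transgene, no age and no culture medium for any of them. For context the text also uses P1 CLiPs held for the same 8 days without the inducers, freshly isolated hepatocytes, and late-passage CLiPs (passage 12 for 2 replicates and passage 11 for 1) with the same induction and at day 0, each with 3 arrays. The labels give no number of animals or cultures, so p-values below take in only the spread among these arrays, which may be technical.

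Oncostatin M is a cytokine of the interleukin-6 family that signals through its receptor and gp130 to the transcription factor STAT3, which switches on acute-phase genes in hepatocytes and its own inhibitor Socs3. Dexamethasone is a synthetic glucocorticoid, and the glucocorticoid receptor it binds controls hepatocyte genes of gluconeogenesis and amino acid breakdown and represses many inflammatory genes. The pair is widely used to mature liver progenitors and fetal hepatocytes in culture. A comparison of day 8 with day 0 holds both the action of the inducers and the time in culture. For that reason values of the uninduced cultures are given further below for some of the genes and lists.

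RNA was measured on 1-colour Agilent arrays. Levels below are log2 signals of 1 probe per gene relative to the 75th percentile of the array, so 0 is a signal at that percentile, and levels of different probes are not compared. A gene was called higher or lower at a Benjamini-Hochberg adjusted p under 0.05 from limma and a change of at least 2-fold. The standard error (SE) and p-value of a P1 change use the spread within all 4 groups of the fit, fresh and uninduced arrays included. They can therefore differ from the spread of the levels printed beside them. A probe was called dim in a group where it was well above background on none of its 3 arrays, and the change of that probe is then given as at least so many fold. The 75th percentile signal was 466 to 573 on P1 induced arrays and 672 to 789 on P1 day-0 arrays, with 49.5% to 51.5% and 49.9% to 53.4% of probes well above background. Over the tested genes, arrays correlated at 0.992 to 0.994 within the induced group, at 0.993 to 0.995 within day 0, and at 0.882 to 0.898 between the groups, so no array stood apart. In these bulk samples fewer cells of a type and less RNA per cell cannot be told apart.

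Of 19288 tested genes, 2413 were higher and 2105 lower in P1 induced CLiPs than in P1 day-0 CLiPs. That is 12.5% of tested genes higher and 10.9% lower, the background against which each gene group is read below. At any size of change, 54.2% of genes had an adjusted p under 0.05, and the median change over all genes was 0.04 log2. In 4483 of the 4518 called genes the 3 arrays of 1 group all lay on the same side of the 3 of the other. Over all tested genes, the 3 induced arrays all lay above the 3 day-0 arrays in 35.7% and below them in 32.7%. The called genes were picked by the same comparison, so their lack of overlap is no separate evidence. Among the called genes, 399 of the higher ones were dim at day 0 and 401 of the lower ones were dim after induction. Such genes entered the test only through the group where they were high, so in practice they could be called in that direction only. The same holds for list members that were dim in 1 group, and the list counts below include them. The arrays sat on 2 slides, slide 4 with induced replicate 1 and day-0 replicates 1 and 2, and slide 5 with induced replicates 2 and 3 and day-0 replicate 3. Within slide 4 the counts were 2115 higher and 1861 lower, within slide 5 2186 and 1847, and with the slide as a block 2458 and 2133. Within either slide 1 of the groups has 1 array, which was assumed to vary like the other groups.

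**Figure D1:**
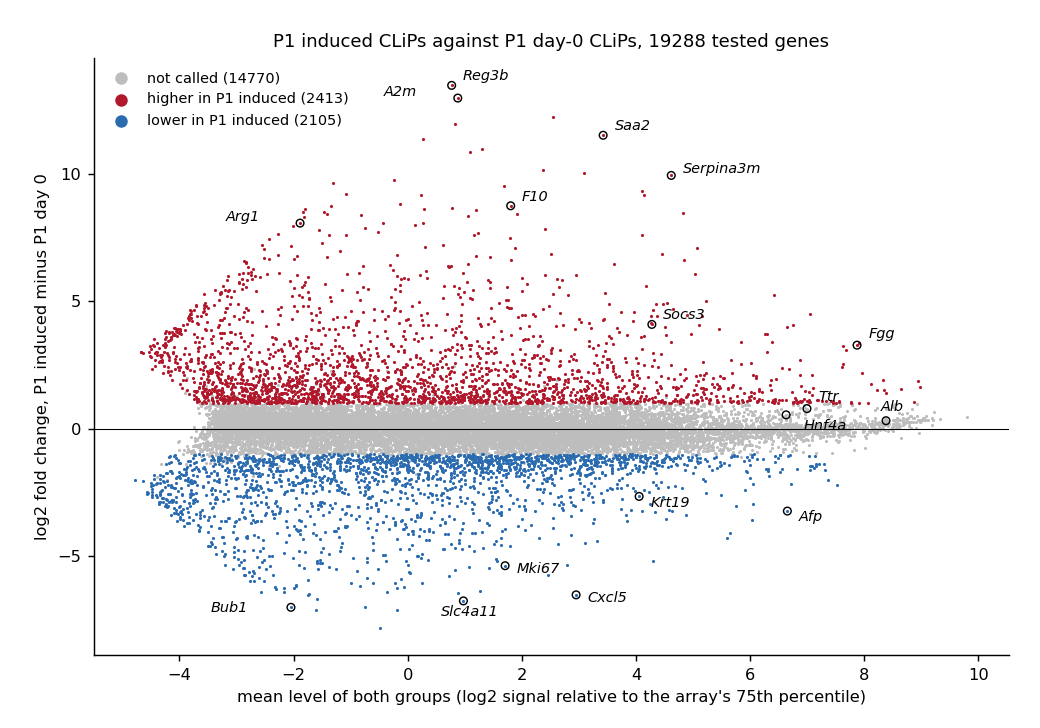
Each point is 1 of 19288 tested genes, with the mean level of both groups on the horizontal axis and the log2 fold change of P1 induced over P1 day 0 on the vertical axis. The 2413 red genes were higher and the 2105 blue genes lower in P1 induced CLiPs. The secreted acute-phase genes Reg3b, A2m, Saa2 and Serpina3m lie at the top, cell cycle genes such as Bub1 and Mki67 at the bottom, and Alb, Ttr and Hnf4a close to 0 at high levels.

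The largest increases were in plasma protein genes. Where all 6 arrays gave a signal well above background, the highest change was that of Saa2, serum amyloid A2, an apolipoprotein of the acute phase, with levels of 9.14, 8.82 and 9.58 in P1 induced CLiPs, against -2.41, -2.92 and -1.67 in P1 day-0 CLiPs. Its log2 fold change was 11.51 ± 0.49 (SE, adjusted p = 2.08e-08). Of 32 listed acute-phase genes 31 were tested, 30 rose and 1 fell, against 12.5% higher and 10.9% lower over all tested genes, and their median change was 5.56, or 5.56 with dim genes at their minimum. The interleukin-1 receptor antagonist Il1rn was the member that fell. Next came the protease inhibitor Serpina3n, at 7.33, 7.21 and 7.79 in P1 induced CLiPs and -2.49, -3.1 and -2.52 in P1 day-0 CLiPs, a log2 fold change of 10.15 ± 0.26. The orosomucoids Orm2 and Orm1, lipid-binding plasma glycoproteins, had changes of 10.05 and 9.34, and the related Serpina3m and Saa1 had 9.94 and 9.19. In all of these the 2 groups lay several log2 units apart, with no overlap.

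Other genes of this kind were dim at day 0. The protease-binding plasma protein A2m stood at 7.29, 7.04 and 7.77 in P1 induced CLiPs and was at least 2441-fold higher than in P1 day-0 CLiPs. Reg3b, a secreted lectin of the pancreatitis-associated protein family, was at least 2693-fold higher, Serpina3c at least 1568-fold and Orm3 at least 916-fold, although a second probe of Orm3 gave a log2 fold change of 4.85. The whey acidic protein family member Wfdc21 was at least 1655-fold higher, Serpina3j at least 1369-fold and the urate oxidase gene Uox at least 284-fold. Members of the Saa, Orm and Serpina3 families are close paralogs, and a probe of one may hybridise with transcripts of another, so the split of the signal among them is uncertain. At the other end of the list, the haemoglobin-binding haptoglobin gene Hp had levels of 9.33, 9.33 and 9.62 in P1 induced CLiPs, against 8.01, 7.81 and 7.80 in P1 day-0 CLiPs, with a log2 fold change of 1.55 ± 0.13. Hp was thus already high before induction and moved far less than the serum amyloid genes.

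The promoters of the acute-phase genes that rose were searched for the letters bound by the factors that oncostatin M and dexamethasone act through, in the 250 bases before the RefSeq gene start (GRCm38.p6). The palindrome TTCNNNGAA, the core bound by STAT factors, was in 6 of 24 windows (25%) of the 23 genes with a match in RefSeq, against 7.02% of all 32851 windows. The palindrome of the glucocorticoid receptor, GNACA and TGTNC spaced by 3 bases, was in 3 of them (12.5%), against 0.387% of all windows. Of these 3 windows, those of Serpina3c and Serpina3n belong to neighbouring paralogs with the same match, so they are not independent. As 30 of the 31 tested members rose, these shares describe the list and do not set the genes that rose apart from it. Both palindromes read the same on either strand. The windows printed are those of the 3 most changed genes with the first motif and the 2 most changed with the second, in lower case with the match in capitals. Apcs (serum amyloid P, chr1:172895055-172895304, minus strand), Itih4 (an inter-alpha-trypsin inhibitor heavy chain, chr14:30886226-30886475, plus strand) and Fga (the fibrinogen alpha chain, chr3:83025903-83026152, plus strand) hold the STAT core. Serpina3c (chr12:104153873-104154122, minus strand) and Serpina3n (chr12:104406458-104406707, plus strand) hold the glucocorticoid receptor palindrome with the same letters. The printed windows of Serpina3c and Serpina3n, which changed more than Apcs, hold no STAT core. Saa2, Orm2, Orm1, Serpina3m, Saa1 and A2m also changed more than Apcs and were not among the genes found with the STAT core. Not every gene could be searched, since 23 of the 30 that rose had a match in RefSeq. A match is a description of these letters and not a binding site.
Apcs: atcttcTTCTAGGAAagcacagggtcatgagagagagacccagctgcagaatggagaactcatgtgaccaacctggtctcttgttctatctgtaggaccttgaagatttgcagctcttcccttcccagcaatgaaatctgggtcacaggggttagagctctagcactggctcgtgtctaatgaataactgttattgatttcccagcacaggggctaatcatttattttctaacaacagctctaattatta
Itih4: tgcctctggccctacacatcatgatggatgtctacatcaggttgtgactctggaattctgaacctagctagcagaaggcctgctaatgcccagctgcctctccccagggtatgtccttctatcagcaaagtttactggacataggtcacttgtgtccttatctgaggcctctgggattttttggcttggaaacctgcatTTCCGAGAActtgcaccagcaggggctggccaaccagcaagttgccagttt
Fga: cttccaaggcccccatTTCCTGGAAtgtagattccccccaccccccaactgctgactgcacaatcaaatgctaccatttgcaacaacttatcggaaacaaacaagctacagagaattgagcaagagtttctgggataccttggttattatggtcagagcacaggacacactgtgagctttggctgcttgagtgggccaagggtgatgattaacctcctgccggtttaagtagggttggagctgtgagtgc
Serpina3c: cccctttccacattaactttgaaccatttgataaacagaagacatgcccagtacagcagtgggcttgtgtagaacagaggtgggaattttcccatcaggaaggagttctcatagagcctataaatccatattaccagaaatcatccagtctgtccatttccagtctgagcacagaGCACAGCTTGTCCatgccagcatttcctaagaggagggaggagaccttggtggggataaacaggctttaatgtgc
Serpina3n: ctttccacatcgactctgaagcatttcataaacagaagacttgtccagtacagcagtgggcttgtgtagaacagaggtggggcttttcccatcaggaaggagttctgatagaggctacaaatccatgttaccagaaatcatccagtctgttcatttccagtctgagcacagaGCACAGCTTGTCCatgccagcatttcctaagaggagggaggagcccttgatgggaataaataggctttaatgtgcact

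The genes with these windows rose by different amounts. Fga had levels of 6.89, 6.85 and 7.29 in P1 induced CLiPs, against 1.91, 2.07 and 2.23 in P1 day-0 CLiPs, a log2 fold change of 4.94 ± 0.17, and its other probe gave 3.60. The change of Itih4 was 5.24 and that of Apcs 6.62. The fibrinogen gamma chain gene Fgg had 9.34, 9.48 and 9.72 in P1 induced CLiPs and 6.20, 6.19 and 6.30 in P1 day-0 CLiPs, a change of 3.28 ± 0.11. Every P1 induced array lay above every P1 day-0 array for Fga, Itih4, Apcs and Fgg.

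Complement and coagulation genes, which hepatocytes secrete into plasma, rose almost as a whole. Of 37 listed genes, all tested, 33 rose, none fell and 4 were not called, with a median of 4.82, or 4.56 with dim genes at their minimum. Coagulation factor F10 had levels of 6.00, 5.89 and 6.65 in P1 induced CLiPs, against -2.79, -3.17 and -1.75 in P1 day-0 CLiPs, with a log2 fold change of 8.75 ± 0.36 (adjusted p = 1.58e-08). Cpb2, a carboxypeptidase that slows clot lysis, had 7.65, 7.82 and 8.26 in P1 induced CLiPs and 0.16, 0.18 and 0.58 in P1 day-0 CLiPs, a change of 7.60 ± 0.25. The complement genes C8a, C4a and Mbl1 (mannose-binding lectin) were dim at day 0 and at least 58.6-fold, 150-fold and 43.5-fold higher, with a log2 fold change of 4.36 by the other probe of C8a. C4a and C4b are near-identical, so their signals cannot be told apart with certainty. The antithrombin gene Serpinc1 had a change of 7.82 ± 0.44 by its brightest probe, but its other probe gave 0.45, so its size depends on the probe.

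Secreted carriers of plasma divided. Of 38 tested members, from 39 listed, 21 rose, 1 fell (Afp) and 16 were not called, with a median of 1.37. Albumin itself, Alb, had levels of 8.48, 8.43 and 8.70 in P1 induced CLiPs, against 8.18, 8.07 and 8.42 in P1 day-0 CLiPs, a difference of 0.32 ± 0.11 that was under 2-fold (adjusted p = 0.0347). Transthyretin, Ttr, a carrier of thyroid hormone, had 7.37, 7.27 and 7.53 in P1 induced CLiPs and 6.51, 6.28 and 7.01 in P1 day-0 CLiPs, a difference of 0.79 ± 0.21 that did not reach 2-fold either. Both were already high before induction. The murinoglobulin gene Mug1, a proteinase inhibitor related to A2m, had 6.28, 6.16 and 5.95 in P1 induced CLiPs and -2.47, -2.77 and -1.64 in P1 day-0 CLiPs, a change of 8.42 ± 0.35. The apolipoprotein genes Apoa4 and Apof changed by 8.08 and 7.67, and Apoc3 by 7.48, with 0.48 to 6.84 by its other probes. All 9 tested major urinary protein genes rose, with a median of 4.36, from 2.79 for the least changed to 4.99 for Mup3, whose other probes gave 0.16 and 6.24. These genes are near-identical copies, so the 9 values are not independent.

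**Figure D2:**
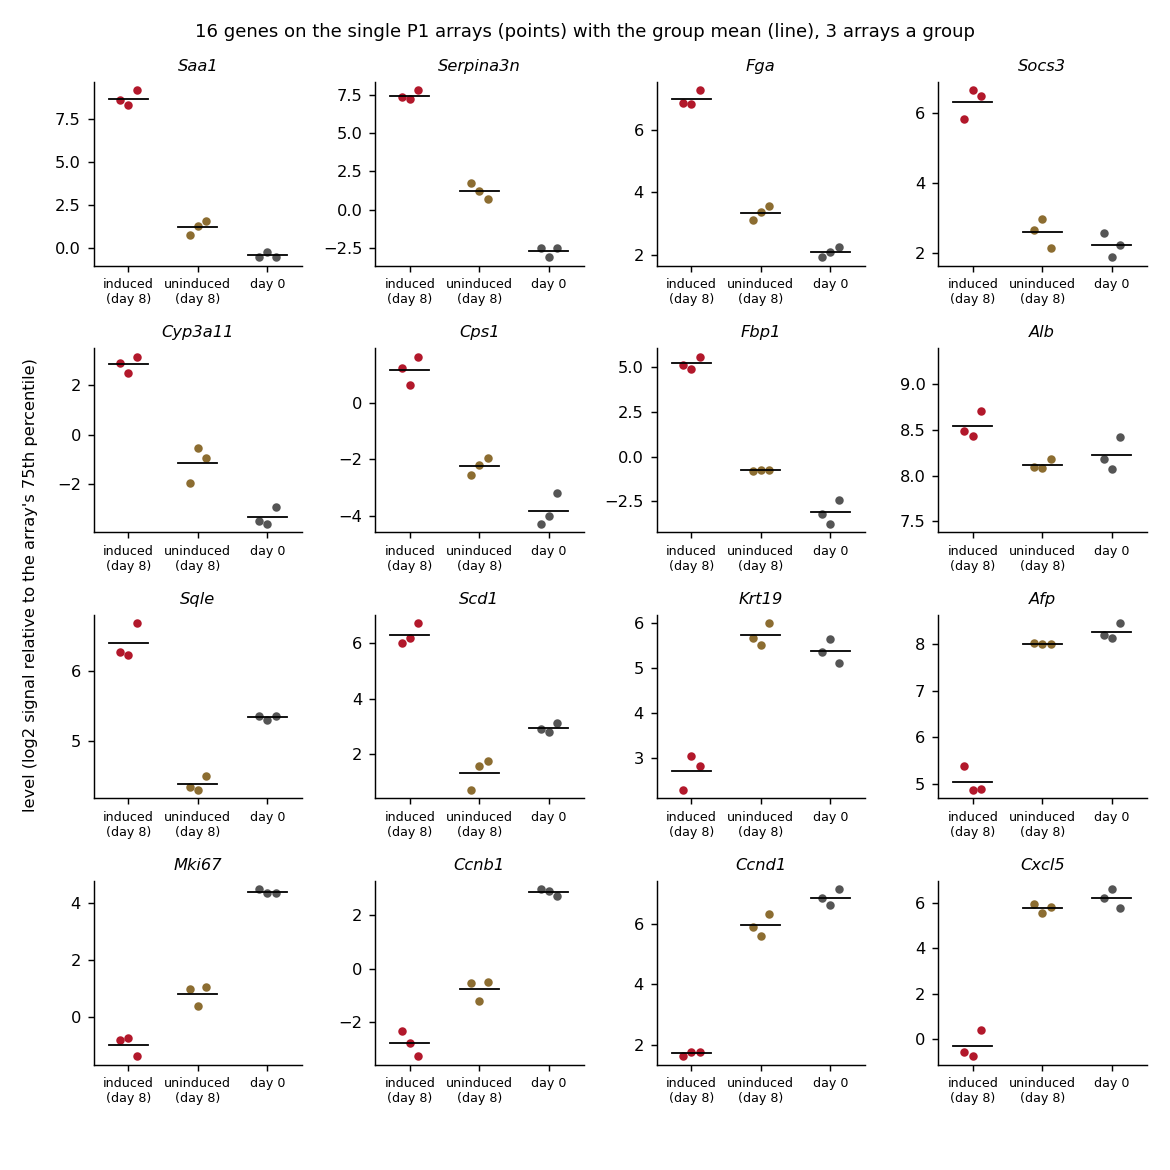
Levels of 16 genes on the single P1 arrays (points) with the mean of the 3 arrays of a group (line), on a log2 scale relative to the 75th percentile of the array, for induced cells at day 8, uninduced cells at day 8 and cells at day 0. Saa1, Fga and Socs3 are highest in induced CLiPs, Alb lies within 0.7 log2 units on all 9 arrays, Mki67 and Ccnb1 are low at day 8 with and without the inducers, and Krt19, Afp, Ccnd1 and Cxcl5 are lower in induced than in uninduced CLiPs and at day 0.

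Drug metabolism genes of phase I rose. Of 32 tested cytochrome P450, carboxylesterase and related genes, from 38 listed, 29 rose and none fell, with a median of 2.47, or 2.25 with dim genes at their minimum. Cyp3a11, the main drug-metabolising P450 of mouse liver, had levels of 2.93, 2.51 and 3.18 in P1 induced CLiPs, against -3.54, -3.63 and -2.94 in P1 day-0 CLiPs, a log2 fold change of 6.24 ± 0.35 (adjusted p = 1.39e-07). Cyp3a41a changed by 7.10, Cyp2b9 by 6.07 and Cyp2b10 by 6.04. Cyp3a25 and Cyp2f2 were dim at day 0 and at least 78.8-fold and 15.7-fold higher. Cyp2e1 and Cyp7a1, the rate-limiting enzyme of bile acid synthesis, were not well above background on all 3 arrays of either group and were not tested.

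Phase II conjugation enzymes went both ways. Of 26 tested members, from 34 listed, 14 rose and 5 fell, with a median of 1.13. The 5 that fell were all glutathione transferases, with Gsta4 at -0.44, -0.75 and -0.76 in P1 induced CLiPs, against 3.94, 3.54 and 4.28 in P1 day-0 CLiPs, a change of -4.57 ± 0.24. Gsta2 changed by -3.40 and Gstt2 by -3.37. Transferases of the mu class moved the other way, with Gstm2 at 4.89, 4.75 and 5.08 in P1 induced CLiPs and 1.75, 1.04 and 1.56 in P1 day-0 CLiPs, a change of 3.46 ± 0.23. The sulfotransferase Sult1a1 changed by 3.41. Gsta2 and Gsta4 are also members of a list of 23 tested NRF2 targets, of which 4 rose and 5 fell, with a median of -0.13. Hmox1, the haem oxygenase of that list, changed by 2.77, and Gclc, the catalytic subunit that makes glutathione precursors, by -2.30.

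Enzymes of the urea cycle and amino acid breakdown rose in 32 of 43 tested genes, from 45 listed, and fell in none, with a median of 2.56, or 1.72 with dim genes at their minimum. Several of the genes that rose, Arg1 and Mat1a among them, were dim at day 0 and entered the test only through the induced arrays. Cps1, the first enzyme of the urea cycle, had levels of 1.23, 0.64 and 1.63 in P1 induced CLiPs, against -4.29, -4.01 and -3.22 in P1 day-0 CLiPs, a change of 5.01 ± 0.32 (adjusted p = 3.25e-07), and was well above background on 1 of the 3 day-0 arrays. Arginase Arg1, the last enzyme of the cycle, stood at 2.24, 1.4 and 2.81 in P1 induced CLiPs and was dim at day 0, so that it was at least 65.7-fold higher. The methyl transfer enzyme Bhmt had 6.13, 5.99 and 7.26 in P1 induced CLiPs and -2.63, -4.12 and -2.46 in P1 day-0 CLiPs, a change of 9.53 ± 0.53, and was well above background on 2 of the 3 day-0 arrays. Tat, tyrosine aminotransferase, a classic glucocorticoid target of liver, changed by 2.56 ± 0.28. Mat1a, the liver form of the enzyme that makes S-adenosylmethionine, was at least 57.6-fold higher.

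Genes of gluconeogenesis and glycogen rose in 14 of 23 tested members, from 25 listed, and fell in none, with a median of 1.74. Fbp1, fructose-1,6-bisphosphatase, had levels of 5.15, 4.92 and 5.59 in P1 induced CLiPs, against -3.18, -3.74 and -2.41 in P1 day-0 CLiPs, a change of 8.33 ± 0.28, and was well above background on 2 of the 3 day-0 arrays. G6pc, the catalytic subunit of glucose-6-phosphatase, had 2.96, 2.91 and 2.19 in P1 induced CLiPs and -2.82, -2.94 and -3.07 in P1 day-0 CLiPs, a change of 5.63 ± 0.50. The liver glycogen synthase Gys2 was dim at day 0 and at least 78.8-fold higher. Pck1, the rate-limiting enzyme of gluconeogenesis, was well above background on 1 induced array and no day-0 array and was not tested. In a list of glycolysis genes, 8 of 20 tested members rose and none fell, led by the lactate exporter Slc16a3 (8.57) and the aldolase Aldoc (3.07). The list holds isozymes of several tissues, and the liver phosphofructokinase Pfkl (2.99) was among the 8.

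Lipid genes showed different behaviour by pathway. Fatty acid oxidation and ketone body genes rose in 26 of 42 tested members, from 43 listed, and fell in none, with a median of 1.30. The fatty acid binding protein Fabp1 had levels of 5.39, 5.00 and 5.89 in P1 induced CLiPs, against 0.10, -0.33 and 0.83 in P1 day-0 CLiPs, a change of 5.23 ± 0.28 (adjusted p = 1.07e-07). Fatty acid and triglyceride synthesis genes rose in 15 of 32, with a median of 0.83, led by the lipogenic factor Thrsp (6.84) and the lipid droplet protein Plin5 (6.18). The desaturase Scd1 had 6.01, 6.19 and 6.74 in P1 induced CLiPs and 2.89, 2.79 and 3.1 in P1 day-0 CLiPs, a change of 3.39 ± 0.33. Bile acid synthesis and transport genes rose in 14 of 24 tested members, from 33 listed, and fell in 1, Abcc4, an exporter of the basolateral membrane, which changed by -3.71 ± 0.21. The bile acid ligase Slc27a5 changed by 7.59 ± 0.24, and the canalicular bile salt export pump Abcb11, dim at day 0, was at least 65.2-fold higher.

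Cholesterol synthesis genes, most of them targets of the transcription factor SREBP2, were mostly not called between P1 induced and P1 day-0 CLiPs. Of 24 tested members 1 rose (Sqle, 1.06 ± 0.19), 1 fell (Idi1, -1.32 ± 0.22) and 22 were not called, with a median of -0.13. The change of Sqle was below 2-fold under quantile normalization (0.93), normexp background correction (0.98) and the mean of its probes (0.99). It was also below 2-fold within slide 4 (0.95) and without induced replicate 3 (0.91). Squalene epoxidase, Sqle, had levels of 6.28, 6.24 and 6.69 in P1 induced CLiPs, against 5.36, 5.30 and 5.37 in P1 day-0 CLiPs. Uninduced cultures of the same 8 days had Sqle at 4.35, 4.31 and 4.51. The list median was -1.58 for P1 uninduced minus P1 day 0, where 20 members were called lower (5.1% of all genes were), and 1.36 for P1 induced minus P1 uninduced, where 19 were called higher (9.72% of all genes were). The 2 comparisons share the uninduced arrays.

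**Figure D3:**
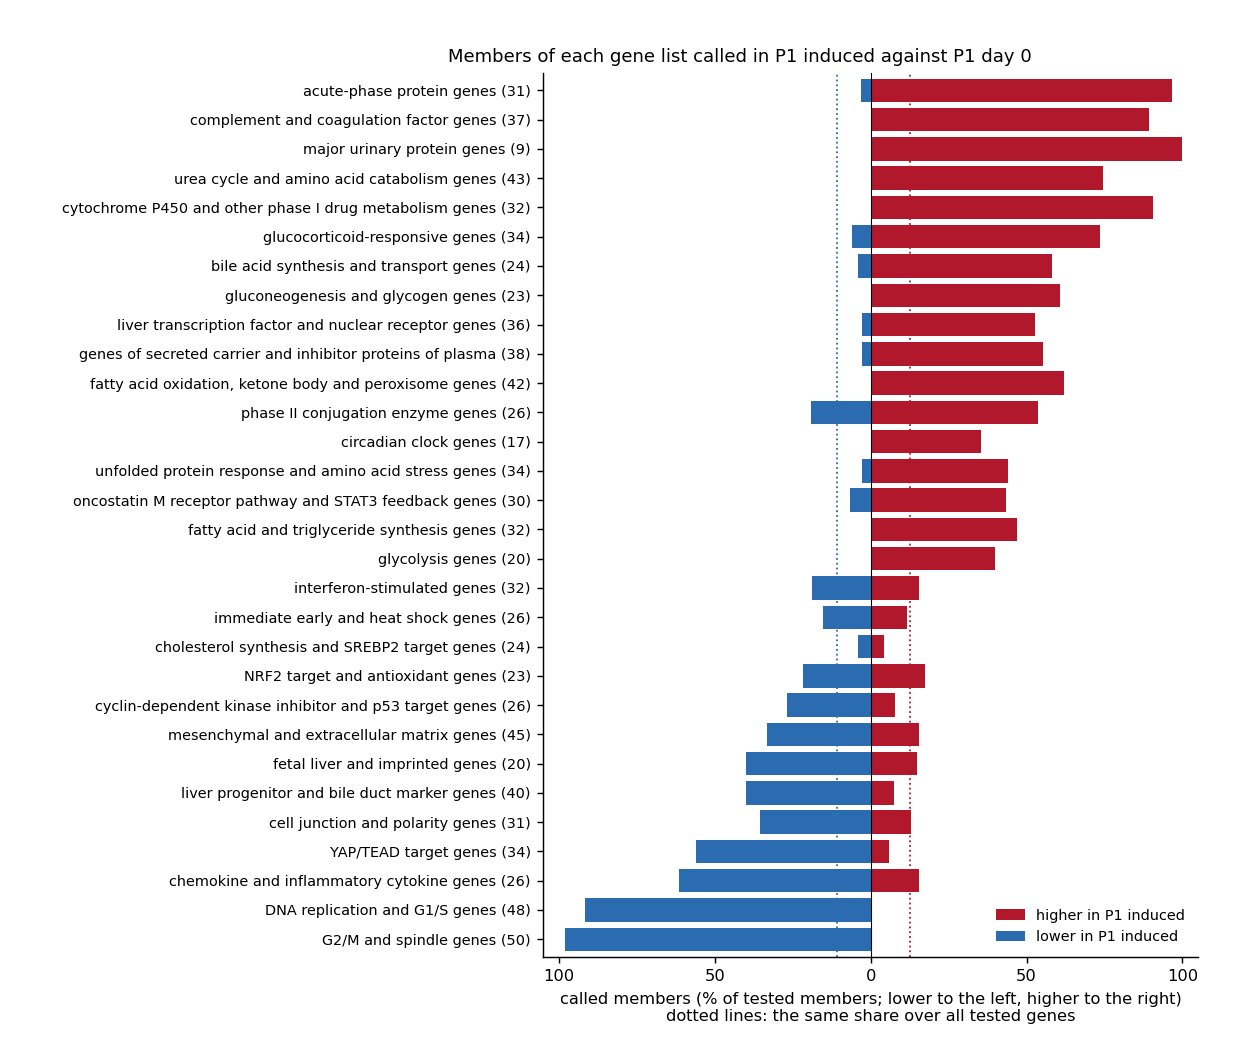
Share of the tested members of each gene list called higher (red, right) or lower (blue, left) in P1 induced CLiPs than in P1 day-0 CLiPs, with the number of tested members in brackets and dotted lines at 12.5% and 10.9%, the shares over all tested genes. Acute-phase, complement and P450 lists extend far to the right of the background, replication and spindle lists far to the left, and the cholesterol synthesis list has 1 member called each way.

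Of 36 tested liver transcription factors and nuclear receptors, from 38 listed, 19 rose and 1 fell (Gata4, a factor of early liver development, under 2-fold with normexp background correction, with the mean of its probes and within slide 4), with a median of 1.38. Creb3l3, a membrane-bound factor that controls acute-phase and lipid genes, had levels of 6.01, 6.05 and 6.27 in P1 induced CLiPs, against 0.61, 0.69 and 1.06 in P1 day-0 CLiPs, a change of 5.32 ± 0.14. Cebpa, a factor that promotes hepatocyte maturity and slows proliferation, had 1.05, 1.53 and 1.95 in P1 induced CLiPs and -1.17, -1.16 and -0.77 in P1 day-0 CLiPs, a change of 2.54 ± 0.21 (adjusted p = 2.16e-06). Ppara, the nuclear receptor of fatty acid breakdown, changed by 3.14, its partner Rxra by 2.59 and the glucocorticoid-responsive Klf15 by 2.37. The pregnane X receptor Nr1i2, dim at day 0, was at least 9.09-fold higher. Hnf4a, the central regulator of hepatocyte identity, was 6.90 ± 0.19 in P1 induced CLiPs and 6.36 ± 0.25 in P1 day-0 CLiPs (SD, n = 3 each), a difference of 0.55 ± 0.16 under 2-fold.

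The oncostatin M pathway itself was read from receptors to feedback. The receptor Osmr had levels of 4.71, 4.91 and 4.77 in P1 induced CLiPs, against 2.54, 2.40 and 2.29 in P1 day-0 CLiPs, a change of 2.39 ± 0.24 (adjusted p = 1e-05). Its partner gp130, Il6st, differed by 0.86 ± 0.11, under 2-fold (1.08 within slide 5), while the leukaemia inhibitory factor receptor Lifr fell, with -1.31 ± 0.22. Il6ra, the interleukin-6 receptor, changed by 1.47 ± 0.21. Among the kinases, Jak1 and Jak2 differed by 0.20 and 0.52 and were not called. Stat3, the main signal transducer, had 4.67, 4.76 and 4.83 in P1 induced CLiPs and 3.32, 3.32 and 3.29 in P1 day-0 CLiPs, a change of 1.44 ± 0.11. Its feedback inhibitor Socs3 had 5.84, 6.65 and 6.49 in P1 induced CLiPs and 2.58, 1.88 and 2.23 in P1 day-0 CLiPs, a change of 4.09 ± 0.45 (adjusted p = 2.18e-05). Socs2, a feedback gene of growth hormone signalling, moved the other way, at 1.26, 1.35 and 1.16 in P1 induced CLiPs and 4.23, 4.15 and 4.18 in P1 day-0 CLiPs, with -2.94 ± 0.45 and, by its other probes, -2.96 to -1.04. In the whole list 13 of 30 tested genes rose, 2 fell and 15 were not called, with a median of 0.85. The chemokine Cxcl12 and the interleukin-1 receptor Il1r1, both members, changed by 5.82 and 4.72, and Nnmt, a methyltransferase that responds to STAT3, by 4.23.

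Glucocorticoid-responsive genes rose in 25 of 34 tested members, from 37 listed, and fell in 2, with a median of 1.95. Tsc22d3 (GILZ), an anti-inflammatory target, had levels of 4.72, 4.83 and 4.69 in P1 induced CLiPs, against 1.84, 1.86 and 1.86 in P1 day-0 CLiPs, a change of 2.89 ± 0.21 (adjusted p = 1.06e-06). Fkbp5, a chaperone that restrains the receptor, had 4.24, 4.40 and 4.38 in P1 induced CLiPs and 3.35, 3.11 and 3.51 in P1 day-0 CLiPs, a change of 1.01 ± 0.17 at the 2-fold limit. It was under that limit with the mean of its probes (0.80), with normexp background correction (0.99), within slide 5 (0.88) and with the slide as a fixed (0.97) or random block (0.98). The same held without induced replicate 2 (0.98), induced replicate 3 (0.99) or day-0 replicate 2 (0.91). Per1 differed by 0.30 ± 0.60 and Dusp1 by -0.47 ± 0.46, and neither was called. Further along the list, Zbtb16 changed by 3.05, Klf9 by 2.08, Sgk1 by 1.87, and the decoy receptor Il1r2, dim at day 0, was at least 19.8-fold higher (3.61 log2 by its other probe). Lcn2, a siderophore-binding protein of both the acute phase and this list, changed by 3.1 ± 0.27, and Igfbp1, an insulin-like growth factor binding protein, by 2.42 ± 0.47. Anxa1, an anti-inflammatory annexin, fell, at 4.79, 4.92 and 4.40 in P1 induced CLiPs and 7.15, 7.36 and 6.83 in P1 day-0 CLiPs, and Tfcp2l1 was the other member that fell.

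Cell cycle genes fell almost as a whole. Of 50 listed and tested G2/M and spindle genes 49 fell and none rose, with a median of -4.81, or -4.44 with dim genes at their minimum. Of 48 tested replication and G1/S genes 44 fell and none rose, with a median of -2.59. Mki67, the proliferation marker, had levels of -0.80, -0.75 and -1.39 in P1 induced CLiPs, against 4.48, 4.36 and 4.34 in P1 day-0 CLiPs, a change of -5.37 ± 0.43 (adjusted p = 1.83e-06). Cyclin B1, Ccnb1, had -2.33, -2.76 and -3.26 in P1 induced CLiPs and 2.95, 2.89 and 2.72 in P1 day-0 CLiPs, a change of -5.64 ± 0.38, and the mitotic kinase Plk1 changed by -5.46 ± 0.26. The ubiquitin-conjugating enzyme Ube2c, which drives exit from mitosis, changed by -5.77 ± 0.31, the replication helicase subunit Mcm5 by -5.34 ± 0.29 and Uhrf1, which guides maintenance of DNA methylation, by -5.53 ± 0.26 (-3.50 by its other probe). Cyclin D1, Ccnd1, had 1.62, 1.75 and 1.77 in P1 induced CLiPs and 6.86, 6.63 and 7.15 in P1 day-0 CLiPs, a change of -5.17 ± 0.26. The checkpoint kinase Bub1 and the separase Espl1 were dim after induction and at least 31.7-fold and 32.9-fold lower, and Kif23, Melk and Pbk at least 44.4-fold, 38.7-fold and 33-fold lower. For Kif23 the value depends on the probe, since its other probes ranged over log2 fold changes of -5.65 to 0.20.

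The promoters of the cell cycle genes that fell often held the CCAAT box, bound by NF-Y. CCAAT on either strand was in 31 of 41 windows (75.6%) of the 39 spindle genes with a match, and in 54.5% of the 44 windows of replication genes, against 33.8% of all windows. TTTGAA, the cell cycle genes homology region bound by DREAM and MuvB complexes, was in 34.1% and 13.6% of them, against 16% of all. The E2F motifs TTTCCCGC and TTTGGCGC were in 2.44% and 15.9%, against 1.3%. The STAT core was in none of the spindle windows and in 6.82% of the replication windows. As 49 of 50 spindle genes and 44 of 48 replication genes fell, these shares describe the lists. They do not set the genes that fell apart from the other members. The windows shown are those of Espl1 (chr15:102296043-102296292, plus strand) and Ube2c (chr2:164769679-164769928, plus strand), with CCAAT or its reverse ATTGG and TTTGAA or its reverse TTCAAA in capitals (in Ube2c the letters CCAATTGG hold overlapping matches on both strands), and of Mcm5 (chr8:75109259-75109508, plus strand), with the E2F match, read on the other strand, and CCAAT in capitals.
Espl1: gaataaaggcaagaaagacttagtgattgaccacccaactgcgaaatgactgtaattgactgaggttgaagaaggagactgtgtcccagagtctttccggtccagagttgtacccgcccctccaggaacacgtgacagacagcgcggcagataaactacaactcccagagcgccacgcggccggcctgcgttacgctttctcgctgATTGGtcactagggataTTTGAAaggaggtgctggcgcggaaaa
Ube2c: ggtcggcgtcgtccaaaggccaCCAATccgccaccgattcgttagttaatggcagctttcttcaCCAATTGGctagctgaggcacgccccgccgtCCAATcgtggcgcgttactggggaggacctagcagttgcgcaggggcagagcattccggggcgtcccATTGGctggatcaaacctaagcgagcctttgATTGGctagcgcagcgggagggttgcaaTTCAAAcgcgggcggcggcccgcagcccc
Mcm5: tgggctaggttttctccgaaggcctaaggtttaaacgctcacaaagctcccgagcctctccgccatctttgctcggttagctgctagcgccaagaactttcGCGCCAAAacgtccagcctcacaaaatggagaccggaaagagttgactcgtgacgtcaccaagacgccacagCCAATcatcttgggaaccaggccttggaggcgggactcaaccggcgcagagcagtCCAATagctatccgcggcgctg

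Cyclin-dependent kinase inhibitors and p53 targets were mostly not called. Of 26 tested members 2 rose and 7 fell, with a median of -0.34. Cdkn1a (p21) had levels of 3.03, 3.48 and 3.80 in P1 induced CLiPs, against 3.1, 3.19 and 3.44 in P1 day-0 CLiPs, a difference of 0.19 ± 1.06 (adjusted p = 0.892). Its other probes gave -0.61 and 2.06, so the value depends on the probe. Cdkn2b and Cdkn2a, inhibitors that accumulate in cultured cells, fell by 2.34 and 1.5 on the log2 scale, and Mdm2, a p53 target, by 1.62. Gadd45a, a stress-responsive growth arrest gene, rose, with 2.53 ± 0.45.

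Liver progenitor and bile duct markers fell in part. Of 40 tested members, from 46 listed, 16 fell, 3 rose and 21 were not called, with a median of -0.54. Keratin 19, Krt19, had levels of 2.30, 3.05 and 2.84 in P1 induced CLiPs, against 5.37, 5.65 and 5.13 in P1 day-0 CLiPs, a change of -2.65 ± 0.20 (adjusted p = 1.3e-06). Krt7, the other bile duct keratin, had 1.05, 1.86 and 1.32 in P1 induced CLiPs and 3.62, 3.59 and 3.15 in P1 day-0 CLiPs, a change of -2.04 ± 0.19, and the adhesion molecule Epcam changed by -1.66 ± 0.14. The tetraspanin Tspan8 and the keratin Krt23 moved furthest, by -6.38 and -6.19, with Tspan8 at -2.11, -1.98 and -1.68 in P1 induced CLiPs and 4.42, 4.20 and 4.74 in P1 day-0 CLiPs. Not every marker moved that way. Sox9, the transcription factor of duct cells, had 1.91, 2.33 and 1.98 in P1 induced CLiPs and 1.39, 1.39 and 1.15 in P1 day-0 CLiPs, and the secreted phosphoprotein Spp1 (osteopontin) had 9.39, 9.29 and 9.55 in P1 induced CLiPs and 8.39, 8.42 and 8.52 in P1 day-0 CLiPs. Both were higher on every P1 induced array, and their differences of 0.77 ± 0.21 and 0.97 ± 0.22 were under 2-fold. The difference of Sox9 passed 2-fold within slide 5 (1.01). That of Spp1 passed it without day-0 replicate 3 (1.01) or induced replicate 2 (1.03). For Cd24a the difference was 0.01 ± 0.19, with 5.54 ± 0.13 in P1 induced CLiPs and 5.53 ± 0.12 in P1 day-0 CLiPs (SD, n = 3 each), and its sign changed between settings.

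Fetal liver and imprinted genes fell in 8 of 20 tested members and rose in 3. Alpha-fetoprotein, Afp, the main plasma protein of fetal liver, had levels of 5.38, 4.86 and 4.87 in P1 induced CLiPs, against 8.19, 8.14 and 8.46 in P1 day-0 CLiPs, a change of -3.23 ± 0.22 (adjusted p = 5.58e-07). Dlk1, a marker of hepatoblasts, was dim after induction and at least 32.5-fold lower (-3.75 log2 by its other probe), and the oncofetal chromatin protein Hmga2 changed by -4.09 ± 0.28. H19, an imprinted RNA of fetal liver, moved the other way, at 5.30, 4.72 and 5.57 in P1 induced CLiPs and 1.58, 2.31 and 3.36 in P1 day-0 CLiPs, a change of 2.78 ± 0.58. Its neighbour Igf2 differed by 0.43 ± 0.18 and was not called.

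Targets of YAP and TEAD, which respond to cell spreading and drive progenitor growth, fell in 19 of 34 tested members and rose in 2, with a median of -1.09. Cyr61 had levels of 0.42, 1.48 and 0.74 in P1 induced CLiPs, against 5.34, 5.37 and 5.32 in P1 day-0 CLiPs, a change of -4.46 ± 0.45, and Ankrd1 one of -2.50 ± 0.09. Thbs1, a matricellular glycoprotein, changed by -5.16 and the receptor kinase Axl by -3.62. Ctgf, another canonical target, had 5.47, 6.04 and 5.17 in P1 induced CLiPs and 6.24, 6.13 and 5.90 in P1 day-0 CLiPs, a difference of -0.53 ± 0.32 that was not called (adjusted p = 0.192). Cell junction and polarity genes fell in 11 of 31 and rose in 4. The gap junction gene Gjb2 was among those that rose (4.43 ± 0.20), and the tubulin gene Tuba1a was the lowest at -3.01 ± 0.14.

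Mesenchymal and extracellular matrix genes differed more between arrays of a group than the other lists did, apart from the stellate cell markers. The standard deviation of the list's mean level within groups was 0.42 log2, and 0.74 for the stellate cell markers, against 0.19 for acute-phase genes. Of 45 tested members, from 52 listed, 7 rose and 15 fell, with a median of -0.37. S100a4 (-4.73) and Cnn1 (-4.14) fell furthest. Vimentin, Vim, had levels of 5.35, 5.22 and 5.15 in P1 induced CLiPs, against 6.35, 6.17 and 6.42 in P1 day-0 CLiPs, a change of -1.08 ± 0.27. Collagen Col1a1 had 3.25, 2.74 and 0.48 in P1 induced CLiPs and 2.46, 1.14 and -0.48 in P1 day-0 CLiPs, and Lum, a matrix proteoglycan, had 3.24, 2.63 and 0.35 in P1 induced CLiPs and 0.49, -1.14 and -2.22 in P1 day-0 CLiPs. Replicate 3 of both groups was the lowest of its group for both genes, and the ranges of the 2 groups overlapped for both. Col1a1 was not called (1.12 ± 1.05, adjusted p = 0.391), while Lum was called at 3.03 ± 1.0 (adjusted p = 0.0248). With the slide as a block the change of Col1a1 was 1.93 and was called. Lum was not called without induced replicate 1 (2.45) or 2 (2.75), without day-0 replicate 2 (2.94) or 3 (2.40), or within either slide. Decorin, Dcn, had 6.31, 6.12 and 5.42 in P1 induced CLiPs and 3.40, 2.14 and 1.44 in P1 day-0 CLiPs with no overlap, a change of 3.62 ± 0.69. The summed signal of 14 stellate cell and fibroblast markers was 57.3 to 118.9 times the 75th percentile signal on P1 induced arrays and 39.7 to 59.6 on P1 day-0 arrays, with Hgf, Lrat, Ngfr and Pdgfra dim in both groups. Of the 8 tested markers of that list, Dcn and Lum were called higher and 2 were called lower. These were Acta2 (-1.68) and Reln, at least 60.2-fold lower by its brightest probe. The part of such cells in these changes was not tested.

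Beyond these groups, the lowest change of a gene detected on all 6 arrays was that of Slc4a11, a membrane transporter, with levels of -2.83, -2.19 and -2.17 in P1 induced CLiPs, against 4.32, 4.45 and 4.28 in P1 day-0 CLiPs, a log2 fold change of -6.75 ± 0.19, with -5.28 by its other probe. Akr1c18, which inactivates progesterone, changed by -6.26 ± 0.36, and the brain-type creatine kinase Ckb by -6.05 ± 0.28. The hedgehog ligand Dhh had 3.29, 2.91 and 4.09 in P1 day-0 CLiPs and was dim after induction, at least 124-fold lower, and the matrix glycoprotein Reln was at least 60.2-fold lower by its brightest probe, with -3.1 to -2.86 log2 by its others. All of these were below the 75th percentile of the array in P1 induced CLiPs and well above background at day 0.

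Chemokine and inflammatory cytokine genes fell in 16 of 26 tested members, from 33 listed, and rose in 4, with a median of -1.44. The neutrophil attractant Cxcl5 had levels of -0.57, -0.77 and 0.42 in P1 induced CLiPs, against 6.21, 6.61 and 5.80 in P1 day-0 CLiPs, a change of -6.51 ± 0.29 (adjusted p = 2.49e-08). Ccl20 had -2.30, -2.73 and -1.93 in P1 induced CLiPs and 4.04, 4.12 and 4.15 in P1 day-0 CLiPs, a change of -6.42 ± 0.48, and the monocyte attractant Ccl2 one of -4.29 ± 0.22. The 4 that rose included Cxcl12 and Cxcl14 (5.09). So acute-phase genes and most chemokine genes, both of which accompany inflammation in liver, moved in opposite directions here. Interferon-stimulated genes went both ways, with 5 of 32 higher (15.6%, against 12.5% of all genes) and 6 lower (18.8%, against 10.9%). Their median was 0.20, and Ifit3, an antiviral protein gene, changed by -4.23 ± 0.36.

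In the list of the unfolded protein response and amino acid stress 15 of 34 tested genes rose and 1 fell, with a median of 0.89. Trib3, a pseudokinase target of ATF4, had levels of 6.64, 6.37 and 6.39 in P1 induced CLiPs, against 2.14, 2.20 and 1.81 in P1 day-0 CLiPs, a change of 4.42 ± 0.26. The hepatokine Fgf21 was dim at day 0 and at least 170-fold higher. Of 17 tested clock genes 6 rose and none fell, with Nfil3, a repressor of clock output, at 2.72 ± 0.54. Immediate early genes rose in 3 of 26 and fell in 4, shares near those of all genes, with Fosl1, an AP-1 subunit, at -3.66 ± 0.38.

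Hepatocyte markers were present in both groups. Of 12 such markers 11 were well above background on all P1 induced arrays and 10 on all P1 day-0 arrays, and 6 of the 11 tested ones rose. Markers of other cells were detected to different extents. Among 12 endothelial markers 7 were dim in P1 induced CLiPs and 6 in P1 day-0 CLiPs, including Cdh5, Kdr, Lyve1, Tek and Vwf in both. Among 14 macrophage markers 9 were dim in P1 induced CLiPs and 8 in P1 day-0 CLiPs, including Adgre1, C1qa, Clec4f and Vsig4 in both. Well above background were 3 on all P1 induced arrays and 4 on all P1 day-0 arrays. Their summed signal, scaled as for the stellate cell markers, was 13.07 to 15.49 on P1 induced arrays and 9.507 to 10.09 on P1 day-0 arrays. For the endothelial markers the sums were 1.605 to 1.781 and 0.9397 to 1.417. The part of such cells in these sums was not tested. The markers of these types that were called were Stab1 (2.15 ± 0.17) and Csf1r (1.49 ± 0.24), and 2 stellate cell markers each way. Among the 14 stellate cell markers 6 were dim in P1 induced CLiPs and 5 in P1 day-0 CLiPs. Of 10 lymphocyte markers 2 were tested and neither was called, and 1 of the mesothelial markers, Msln, fell (-1.75 ± 0.39). Of 8 erythroid markers 3 were tested and Slc4a1, an anion exchanger, rose (1.24 ± 0.23, and 0.76, under 2-fold, with normexp background correction), while Hbb-b1 and Hbb-bt were dim in both groups.

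Freshly isolated hepatocytes give a scale for these levels, as group means with no test. The fresh arrays sat on slides 1, 2 and 3, apart from the P1 arrays, with a 75th percentile signal of 291 to 332. An effect of slide or scaling on these levels therefore cannot be told apart from the cell state. Replicate 3 of the 3 fresh arrays also carries the passage label P1 beside its title. It was kept as fresh, and without it each gene below lay on the same side of the fresh mean. Saa2 averaged 9.18 in P1 induced CLiPs and 5.67 in fresh hepatocytes, and Serpina3n 7.45 in P1 induced CLiPs and 3.47 in fresh hepatocytes, both above the fresh level. Over the acute-phase list 21 of the 31 tested members had a higher mean in P1 induced CLiPs than in fresh hepatocytes (21 without that array), and Serpina3m, at 9.59 in P1 induced CLiPs and 9.90 in fresh hepatocytes, was among those that did not. The share over all tested genes was not taken, so this count cannot be read as particular to acute-phase genes. Bhmt averaged 6.46 in P1 induced CLiPs and 9.60 in fresh hepatocytes, Cps1 1.17 in P1 induced CLiPs and 6.55 in fresh hepatocytes, and Cyp3a11 2.87 in P1 induced CLiPs and 7.20 in fresh hepatocytes, all below the fresh level. Alb averaged 8.54 in P1 induced CLiPs and 9.67 in fresh hepatocytes.

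The cultures kept 8 days without inducers show which gene groups had moved by then. These comparisons share samples with the main one, so their values are given side by side only. For the acute-phase list the median was 3.82 for P1 induced minus P1 uninduced and 1.70 for P1 uninduced minus P1 day 0. Of its 31 tested members 21 were already higher in P1 uninduced CLiPs than at day 0, against 6.18% of all genes. Part of the rise over day 0 was thus also seen without the inducers. For spindle genes the values were -1.53 and -3.39, and 49 of the 50 were already lower in P1 uninduced CLiPs than at day 0. Mki67 had 0.96, 0.37 and 1.06 on the uninduced arrays, between the values of P1 induced and P1 day-0 CLiPs. Chemokine genes had medians of -1.37 for P1 induced minus P1 uninduced and 0.01 for P1 uninduced minus P1 day 0, and YAP and TEAD targets -1.11 and 0.02. For progenitor and bile duct markers they were -1.4 and 0.43, with Krt19 at 5.68, 5.52 and 6.01 without inducers. Glucocorticoid-responsive genes had 1.30 and 0.65, and 8 of 34 were higher and 1 lower in P1 uninduced CLiPs than at day 0. Genes of the oncostatin M pathway had 0.63 and 0.16, with 1 of 30 higher and 2 lower without inducers. Major urinary protein genes had 2.45 and 2.13, with 7 of 9 higher without inducers. Cyclin D1 had 5.91, 5.62 and 6.33 on the uninduced arrays, nearer to day 0 than to the induced cells. Over all genes 1909 were higher (9.72%) and 1796 lower (9.15%) in P1 induced than in P1 uninduced CLiPs, and 1203 higher (6.18%) and 992 lower (5.1%) in P1 uninduced than in P1 day-0 CLiPs.

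**Figure D4:**
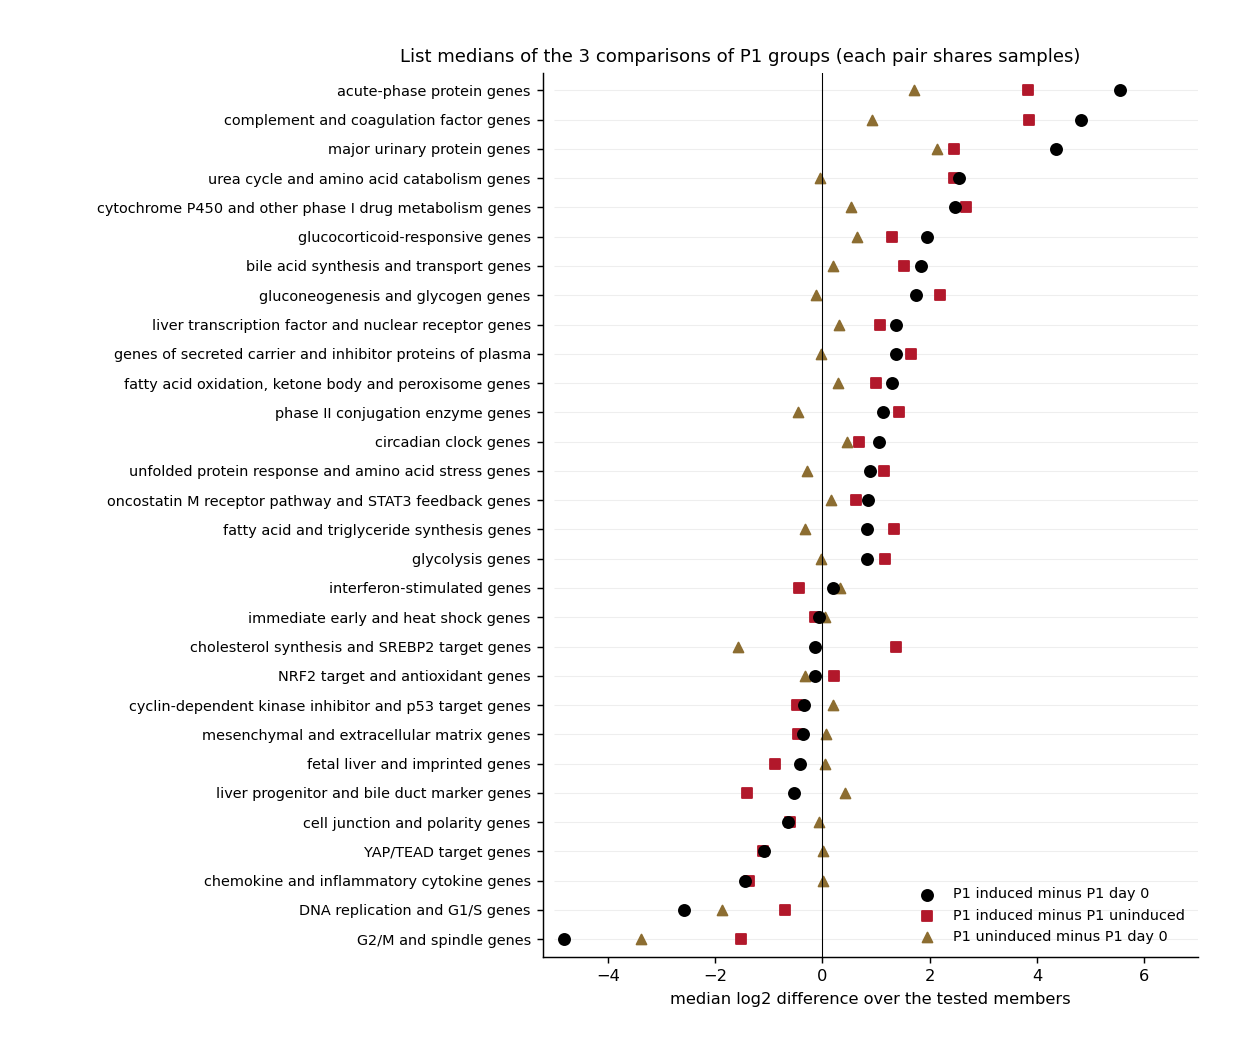
Median log2 difference over the tested members of each gene list for P1 induced minus P1 day 0 (black circles), P1 induced minus P1 uninduced (red squares) and P1 uninduced minus P1 day 0 (brown triangles). Spindle and replication genes lie well below 0 in both comparisons with day 0, acute-phase and complement genes lie furthest right for the main comparison, and cholesterol synthesis genes lie on opposite sides of 0 in the 2 comparisons with uninduced cells.

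The list medians were also taken within each slide. For acute-phase genes they were 5.52 within slide 4, 5.69 within slide 5 and 5.63 with the slide as a block. Complement and coagulation genes gave 4.95, 4.35 and 4.77 in the same order, and phase I genes 2.66, 2.10 and 2.32. Spindle genes gave -4.64, -4.83 and -4.80, chemokine genes -1.63, -1.24 and -1.42, and progenitor and bile duct markers -0.65, -0.40 and -0.52. Mesenchymal and matrix genes had -0.35 within slide 4, -0.08 within slide 5 and -0.26 with the block.

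The same induction of late-passage CLiPs was set against that of P1 CLiPs by the difference of the 2 changes, fitted over all 21 arrays. Of 21612 tested genes 1061 had a higher (4.91%) and 1196 a lower (5.53%) change at P1 than late, called at an adjusted p under 0.05 and a difference of at least 2-fold. Late induction itself gave 11.3% of genes higher and 9.86% lower. Per the file headers, the late arrays were on other slides, read by another scanner unit and extracted with another software version, so an effect of these on the levels cannot be told apart from passage. The fibrinogen gene Fgg changed by 3.28 at P1 and 10.45 late, a difference of -7.17 ± 1.58 (SE, adjusted p = 0.00401). Its mean level was 9.51 in P1 induced, 6.23 in P1 day-0, 7.71 in late induced and -2.74 in late day-0 CLiPs, so the 2 passages stood further apart before induction. Haptoglobin Hp and angiotensinogen Agt, 2 other plasma proteins, had P1 changes of 1.55 and 0.67 and late changes of 7.59 and 6.60. In the other direction, Saa1 changed by 9.19 at P1 and 3.18 late, a difference of 6.00 ± 0.69 (adjusted p = 1.94e-05), and Cpb2 by 7.60 and 2.30. Urea cycle and amino acid genes had a higher change at P1 in 24 and a lower one in 3 of the 43 members tested at P1 (14 and 2 of them without genes dim in a group, whose differences are not exact), and cholesterol synthesis genes in 20 and 0 of 24, with late medians of 0.32 and -1.88. Progenitor and bile duct markers had a lower change at P1 in 10 of 40 and a higher one in none.

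**Figure D5:**
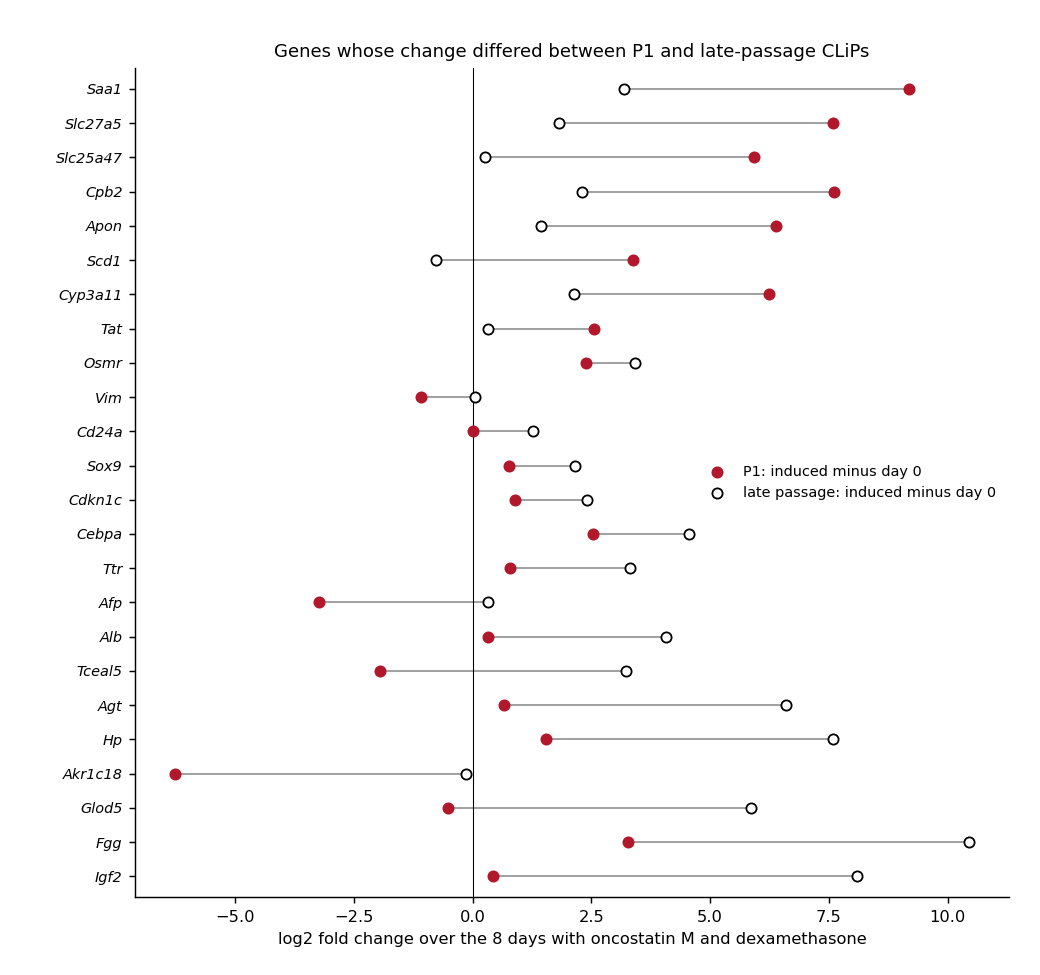
Log2 fold change over 8 days with oncostatin M and dexamethasone at P1 (red) and at late passage (open circles) for 24 genes whose change differed between the passages, ordered by the difference. Saa1, Slc27a5 and Cpb2 moved more at P1, Fgg, Hp and Agt moved more at late passage, and Afp fell at P1 and lay near 0 late.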

How the data were processed

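Per the labels' protocols, total RNA was copied from a poly dT primer, amplified, labelled with Cy3 and hybridised to Agilent arrays in 1 colour. Per the file headers, Agilent Feature Extraction (11.5.1.1, and 10.7.3.1 for late arrays) made the intensity values used here, the background-subtracted and detrended processed signal of each spot. The authors' deposited table of log2 values equalled the log2 signal minus the 75th percentile of the array up to a constant (56605 probes checked). Groups and replicate numbers came from the titles.

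Control and outlier-flagged spots were left out, spots of a probe averaged and the 75th percentile subtracted. The probe with the highest mean over 21 arrays stood for its gene. A gene was tested if the scanner flagged it as well above background on all 3 arrays of either group (19288 of 37074 names; 17762 were dim and 24 had a flagged spot). In a minimum fold, a dim value was raised to the lowest signal well above background on its array where it was lower. Group means of the 12 fresh and P1 arrays, or of all 21 for the passage difference, were fitted with limma 3.58.1 (R 4.3.3), with Benjamini-Hochberg adjustment over all tested genes. No array had a saturated spot, and the number of arrays limits the precision.

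The text names the 15 highest and 15 lowest genes detected on all arrays, the 8 highest and 8 lowest by minimum fold, the 6 most changed members of each list, members of the oncostatin M and glucocorticoid lists, core genes and the 6 highest and 6 lowest passage differences of genes that all arrays of the 4 groups measured well above background, as far as space allowed. Il1rn, Gata4, Apcs and Itih4 were named after their values were seen. The gene lists, members and rules were chosen with earlier results of these data known. Same-numbered arrays of both groups deviated from their means with correlations of 0.198, -0.065 and 0.317, against -0.307 to 0.169 for arrays of different numbers. Whether the numbers pair the samples cannot be told from these values, and the main fit did not pair them. Alternatives were another normalization, background correction, filter, probe rule, sample set or block, and each array left out; leaving out the fresh array with a passage label was added after the data were seen. The fit was tested on simulated data. Promoters came from RefSeq (GRCm38.p6). A few genes of these lists are not reported here by name.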

Additional observations from a re-analysis of the deposited data

Results flagged for a closer look

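The change over the 8 days of induction differed between P1 and late-passage CLiPs, by the test of the difference itself in limma (adjusted p under 0.05 and at least 2-fold), for 24 genes that are core hepatocyte, progenitor, cell cycle or pathway genes or are among the 6 highest and 6 lowest such differences of genes that all arrays of these 4 groups measured well above background. Genes dim in 1 of the groups, whose differences are not exact and can be larger, are not given. The values are the log2 change at P1 minus the log2 change at late passage. For 16 of them the P1 change was the lower one. Of the plasma protein genes, the difference was -7.17 for Fgg, -6.04 for Hp, -5.94 for Agt, -3.75 for Alb and -2.53 for Ttr, and for Afp it was -3.56. For Alb the adjusted p was 0.0451 (SE 1.26). The growth factor gene Igf2 had -7.66 and was well above background on 1 of the 3 late day-0 arrays, as was Cebpa, with -2.0. With normexp background correction the difference of Cebpa was -0.86, under 2-fold. Glod5 had -6.38, Akr1c18, a steroid dehydrogenase gene, -6.12, and Tceal5 -5.16. For Cdkn1c it was -1.5, for Sox9 -1.38, for Cd24a -1.27, for Vim -1.12 and for Osmr -1.03.

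For the other 8 genes the P1 change was the higher one. Saa1 had a difference of 6.00, the bile acid ligase Slc27a5 5.77, the mitochondrial carrier Slc25a47 5.67, Cpb2 5.30 and the apolipoprotein gene Apon 4.95. The metabolic genes Scd1, Cyp3a11 and Tat had 4.16, 4.11 and 2.23. The call for Alb was lost without P1 day-0 replicate 1, P1 day-0 replicate 2, P1 day-0 replicate 3, P1 induced replicate 1, P1 induced replicate 2, P1 induced replicate 3, late-passage day-0 replicate 1, late-passage day-0 replicate 2, late-passage induced replicate 1 or late-passage induced replicate 3, with a difference of -3.83 to -2.65. The call for Osmr was lost without P1 day-0 replicate 1, P1 day-0 replicate 2, P1 day-0 replicate 3, P1 induced replicate 1, P1 induced replicate 2, P1 induced replicate 3, late-passage day-0 replicate 1, late-passage day-0 replicate 2, late-passage induced replicate 1 or late-passage induced replicate 2, with a difference of -1.09 to -0.84. The call for Vim was lost without P1 day-0 replicate 3, P1 induced replicate 3, late-passage day-0 replicate 1 or late-passage induced replicate 2, with a difference of -1.09 to -1.0. The call for Alb was also lost with the 12 arrays of the 4 groups alone, with no filter on dim probes and with slides as random blocks (-3.17), and that for Osmr with no filter and with the mean of all its probes (-0.83).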

How the results depend on the processing

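The counts of P1 induced over P1 day-0 genes stayed within 1.5 times the values in the report under every alternative run, from 1906 higher and 1644 lower (normexp background correction) to 2948 higher and 2279 lower (no filter on dim probes, which also moved the median change over all genes to 0.32). Quantile normalization gave 2252 higher and 2235 lower, and the mean of all probes of a gene 2266 higher and 1929 lower. With single arrays left out the counts ranged over 2327 to 2486 higher and 2023 to 2166 lower. The replicate block, which treats same-numbered arrays as belonging together without a label that says so, gave 2426 higher and 2113 lower. Not every sample correlated best with its own number. For the passage difference the counts were 623 and 737 among genes well above background in all 4 groups, where fewer genes were tested, 1155 and 1332 with the replicate block within each passage, and 953 to 1193 and 1041 to 1351 with single arrays left out. Alternatives were followed for 145 of the called genes named in the text. Of these, 133 kept their call under all alternatives that gave a value, and none turned sign. The other 12 were Fkbp5, Gadd45a, Gata4, H19, Igfbp1, Lum, Nfil3, Sgk1, Slc4a1, Sqle, Tfcp2l1 and Vim. In the other direction, Il6st, Sox9 and Spp1, under 2-fold in the main fit, were above 2-fold under some alternatives. List medians moved by more than the spread between arrays in 100 of 740 recomputed values. The difference of Cd24a, close to 0, was -0.07 under quantile normalization, -0.0202 under normexp, -0.0402 and -0.0317 with slides as fixed and random blocks, -0.0944 within slide 4 and -0.0109 within slide 5, and -0.055 to 0.0858 with single arrays left out, and that of Cdkn1a was -0.116 within slide 4. The cause of these changes was not tested. The 3 arrays of each group limit what can be called, and probes near background give only minimum changes.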
